A study of Mus musculus with 12 samples.

Results

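The loci of Sall1, Sall3 and Sall4, which encode zinc-finger transcription factors of the spalt family, were examined in mouse forelimb buds for binding of HOXA13 and HOXD13 and for the histone marks H3K27ac and H3K27me3. Members were all peaks that overlapped 1 of 3 windows on mm9: chromosome 8 from 91200000 to 92200000 for Sall1, chromosome 18 from 80900000 to 81400000 for Sall3, and chromosome 2 from 168400000 to 168750000 for Sall4. The windows span 1000, 500 and 350 kb and held 201, 82 and 94 peaks, or 377 of the 189536 peaks of all 7 lists. The wild-type embryos were at E11.5, of a mixed C57BL/6 and CD1 background, and their distal forelimb was profiled for HOXA13, HOXD13, H3K27ac and H3K27me3. Embryos of genotype Hoxa13-/-;Hoxd13-/- on the same background and at the same stage, called the double mutant here, were profiled for the 2 marks; their Hoxa13 allele has a neomycin cassette in the coding region and their Hoxd13 allele a lacZ reporter in exon 1. H3K27me3 was also profiled in forelimb buds of CD1 mice at E10.5, with an antibody of another supplier. Each profile came from 1 library, so no difference below has a replicate check and no p-value is given.

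Spalt proteins act largely as transcriptional repressors, and SALL1 and SALL4 are best known in the limb because human mutations in them cause malformations of the thumb and forearm. SALL1 and SALL3 are expressed in overlapping parts of the developing limb, and SALL4 is an early limb bud factor as well as a factor of pluripotent cells. HOXA13 and HOXD13 are the homeodomain factors of the digit-forming end of the limb. H3K27ac marks active promoters and enhancers, and H3K27me3 is laid down by the Polycomb system, often on developmental genes that are silent in part of the cells of a tissue. In a dissected limb bud, both marks can be called at one place because different cells carry them. In the RefSeq gene table of GRCm38, Sall3 follows Nfatc1 and Atp9b along its chromosome, and Sall4 follows Nfatc2 and Atp9a. These protein-coding neighbours are thus members of the same families at both loci. Sall1 stands between Cyld and Tox3. Gene models of mm9 were not used here, so peaks were not assigned to genes; only Sall1 has a stated position, near 91.55 Mb. Sall2, the remaining family member, has no window.

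The regulatory sequence directly before the most upstream RefSeq start of Sall1 is shown because peaks of HOXA13, HOXD13 and both marks lay around the stated position of this gene. It is the 250 bases before the start, on the minus strand of GRCm38.p6 at chr8:89044163-89044412, which is another build than that of the peaks. Capitals mark CG dinucleotides, the sites at which Polycomb recruitment at unmethylated promoters is commonly centred.
Sall1: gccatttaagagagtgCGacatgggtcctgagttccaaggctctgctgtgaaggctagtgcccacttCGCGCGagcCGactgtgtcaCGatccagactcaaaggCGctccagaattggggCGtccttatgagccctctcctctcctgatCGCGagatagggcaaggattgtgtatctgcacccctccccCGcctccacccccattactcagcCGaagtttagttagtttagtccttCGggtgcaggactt
This stretch held 13 CG dinucleotides and 56.4% G and C. The median of 32851 promoter stretches of the same length was 6 CG dinucleotides, and 31.5% of them held 13 or more. The HOX13-type heptamers CAATAAA and TCGTAAA, searched on both strands, did not occur in it or in the stretches before the other Sall1 starts, 3 starts in all. They occurred in 4.20% and 0.478% of all promoter stretches. No match says only that these letters are not in these windows. Sall3 and Sall4 are named only.

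**Figure D1:**
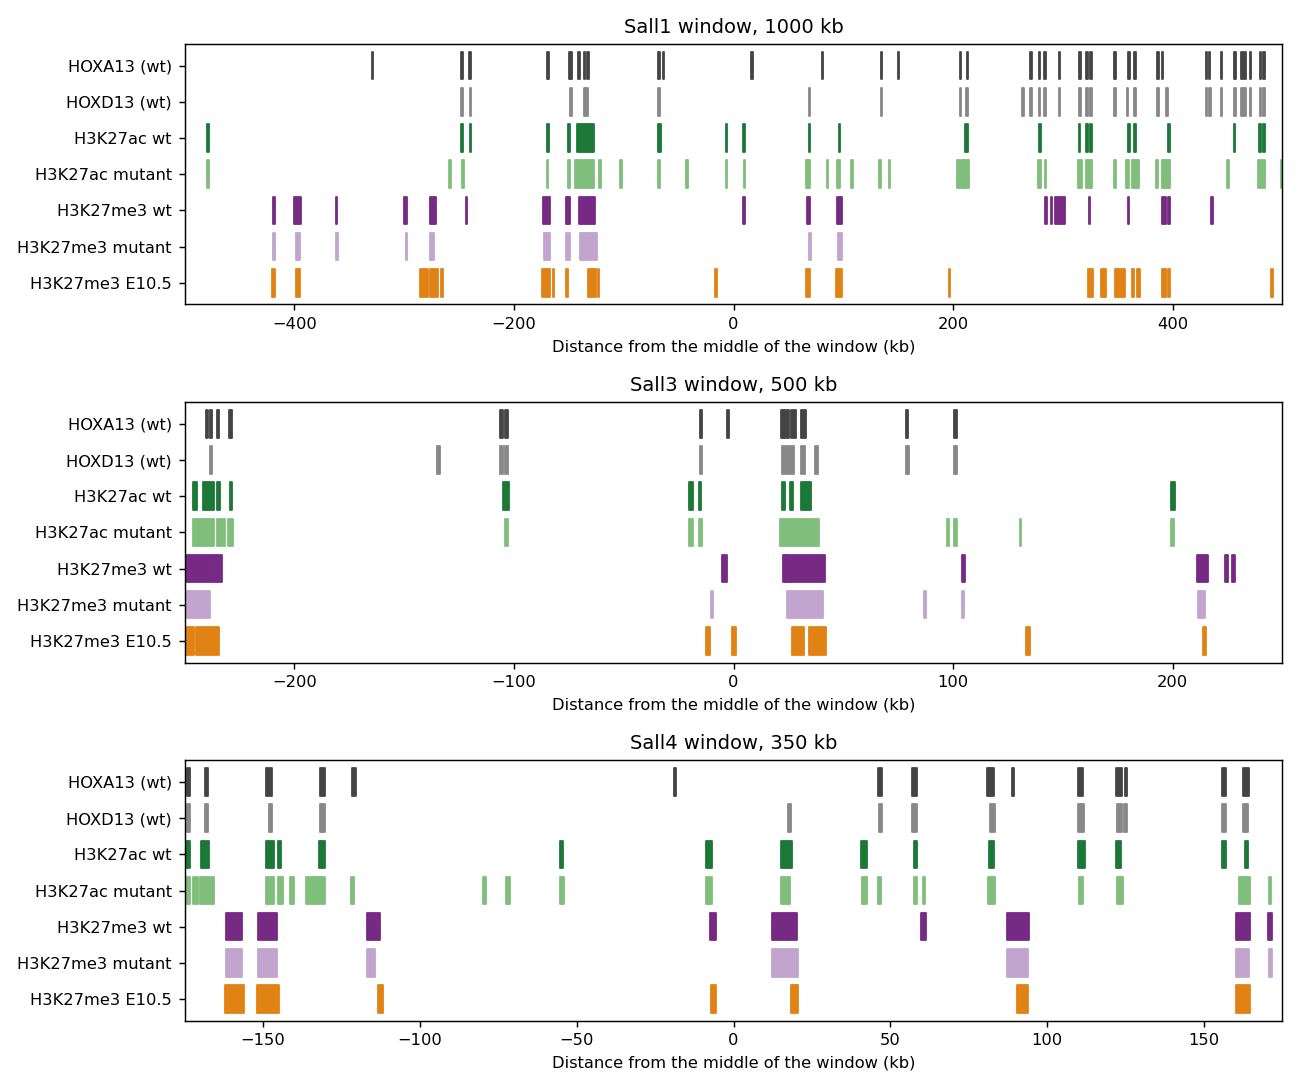
Peaks of the 7 lists in the windows of Sall1, Sall3 and Sall4, with distance from the middle of each window in kb on the horizontal axis and 1 row per library (wt, wild type; mutant, Hoxa13-/-;Hoxd13-/-). In the Sall1 window no mutant H3K27me3 peak lies right of the one that ends at 91797763, a stretch with 9 wild-type H3K27me3 peaks and 25 peaks of each factor.

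HOX13 binding was dense at all 3 loci. The Sall1 window held 38 HOXA13 and 32 HOXD13 peaks, the Sall3 window 16 and 12, and the Sall4 window 16 and 13. Per megabase this was 38.0, 32.0 and 45.7 HOXA13 peaks in the order Sall1, Sall3 and Sall4, against 12.4 over all autosomes. For HOXD13 the densities were 32.0, 24.0 and 37.1 peaks per megabase, against 9.05. Among windows of the same size tiling the autosomes, as many HOXA13 peaks or more were found in 1.91% for Sall1, 7.16% for Sall3 and 2.58% for Sall4. These places describe the 3 windows and were not tested, since the windows were drawn around known genes.

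Merging overlapping peaks of the factors gave 42 binding sites at Sall1, 17 at Sall3 and 17 at Sall4. Both factors had a peak at 28, 10 and 12 of them, in that order, or 66.7%, 58.8% and 70.6%, near the 58.1% of all autosomal sites. HOXA13 peaks overlapped a HOXD13 peak in 28 of 38 cases at Sall1, 11 of 16 at Sall3 and 12 of 16 at Sall4, where the autosomal share was 64.0%. In the opposite direction the counts were 28 of 32, 10 of 12 and 12 of 13 HOXD13 peaks, beside 87.0%. Sharing between the factors at these loci was thus close to that of the genome. The peak score is a measure of how far a peak stands above its input within 1 library. Each site with a HOXA13 peak was given its highest HOXA13 score. The median over these sites was 178 at Sall1, 105 at Sall3 and 274 at Sall4, beside 126 over the autosomes. The highest HOXA13 score of the 3 loci, 1698, belonged to the Sall4 site from 168737343 to 168739281.

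**Figure D2:**
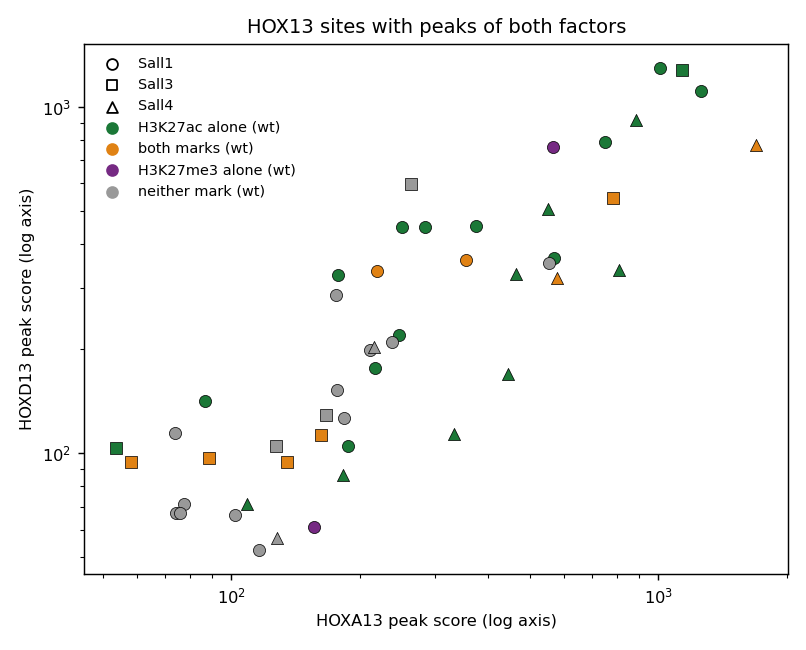
HOXA13 score (horizontal, log axis) against HOXD13 score (vertical, log axis) at each site with peaks of both factors, 28 at Sall1, 10 at Sall3 and 12 at Sall4; shapes are loci and colours the marks called there in wild type. The sites with the highest HOXA13 scores of Sall1 (1258) and Sall3 (1135) carried H3K27ac alone, and that of Sall4 (1698) both marks.

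Most of these sites lay in marked chromatin in wild type. H3K27ac overlapped 20 of 42 sites at Sall1 (47.6%, Wilson 95% interval 33.4 to 62.3%), 10 of 17 at Sall3 (58.8%, 36.0 to 78.4%) and 12 of 17 at Sall4 (70.6%, 46.9 to 86.7%), beside 37.7% of all autosomal sites. H3K27me3 overlapped 11 of 42 sites at Sall1, 10 of 17 at Sall3 and 4 of 17 at Sall4, beside 10.7%. Sall3 thus had the largest share of its HOX13 sites in Polycomb chromatin, 58.8% (36.0 to 78.4%), against 26.2% (15.3 to 41.1%) at Sall1 and 23.5% (9.56 to 47.3%) at Sall4, and these intervals overlap. They treat sites as independent, but neighbouring sites can lie in the same H3K27me3 peak. At Sall3, 1 wild-type H3K27me3 peak of 18265 bp overlapped 6 HOXA13 and 5 HOXD13 peaks. When only peaks scoring at least 100 were kept, 3 of 9 Sall3 sites were in H3K27me3, or 33.3%. Both marks were called at 8 Sall1, 7 Sall3 and 3 Sall4 sites, and 4.13% of autosomal sites had both. Neither mark was called at 19, 4 and 4 sites, beside 55.8%. All intervals here and below are of this kind and cover the counting of peaks only.

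In the double mutant, acetylation of the sites bound in wild type was mostly still called. In a limb bud a mark carried by fewer cells and a mark lower in each cell cannot be told apart. Of the 76 sites of the 3 loci, 42 overlapped H3K27ac in wild type; of these 39 kept it in the double mutant and 3 did not, where 79.7% of such autosomal sites kept it. Of the other 34 sites, 11 had it in the double mutant, beside 7.04% of autosomal sites without wild-type H3K27ac. In the double mutant it was called at 24 of 42 sites at Sall1, 13 of 17 at Sall3 and 13 of 17 at Sall4, beside 34.4% of all autosomal sites. H3K27me3 moved the opposite way in number: 16 sites had it in both genotypes, 9 had it only without the mutations and 0 of the other 51 only with them, beside 0.837% of autosomal sites without wild-type H3K27me3. It remained at 5 of 11 sites at Sall1, 7 of 10 at Sall3 and 4 of 4 at Sall4. Over the autosomes 73.4% of sites in wild-type H3K27me3 kept it. Counting all autosomal sites, 8.60% were in double-mutant H3K27me3. Of the 27 sites with neither mark in wild type, 4 of 19 at Sall1, 1 of 4 at Sall3 and 2 of 4 at Sall4 had H3K27ac alone in the double mutant, beside 6.42% of such autosomal sites.

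The strongest sites show what this meant in place. Among the 5 sites of both factors with the highest HOXA13 score at each locus, 12 of 15 lay in H3K27ac in both genotypes, 1 did so only in the double mutant and 0 only in wild type. The counts in both genotypes were 4, 3 and 5 of 5 at Sall1, Sall3 and Sall4. Among autosomal sites of both factors with a HOXA13 score at least that of the fifth site of each locus, the shares were 44.2%, 36.4% and 44.1%. Of all such autosomal sites down to the lowest HOXA13 score of the 15, 3.80% had H3K27ac in the double mutant only and 12.5% in wild type only. At Sall1 the leading site, from 92021419 to 92023013, had HOXA13 and HOXD13 scores of 1258 and 1110. It lay in a wild-type H3K27ac peak of 1613 bp and in a double-mutant peak of 5528 bp, which also covered the site from 92025023 to 92026340. The next Sall1 site, from 91912098 to 91913643, had scores of 1009 and 1293 and H3K27ac peaks of 2652 bp in wild type and 4136 bp in the double mutant. By contrast the site nearer the gene, from 91631312 to 91632888, had peaks of nearly equal width, 2417 and 2572 bp. The fifth Sall1 site, from 91996319 to 91997692, was the one without H3K27ac in either genotype: it touched a wild-type H3K27me3 peak and had neither mark in the double mutant.

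At Sall3 the leading site, from 81045706 to 81047481, had HOXA13 and HOXD13 scores of 1135 and 1273. Its H3K27ac peak was narrower in the double mutant, 1507 bp against 2421 bp in wild type. The next site, from 81171456 to 81173770, had scores of 785 and 543; its H3K27ac peak was 5995 bp wide in the double mutant and 1381 bp in wild type, and wild-type H3K27me3 at this site was not called in the double mutant. A further Sall3 site, from 81250473 to 81251891, scored 263 for HOXA13 and 598 for HOXD13 and carried H3K27ac in the double mutant only. Acetylation was thus wider at some strongly bound Sall3 sites and narrower at another.

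At Sall4 all 5 leading sites were acetylated in both genotypes. The site with the highest HOXA13 score, 1698, had a HOXD13 score of 777 and lay in H3K27me3 in all 3 lists, with peaks of 4460 bp in wild type, 4106 bp in the double mutant and 4515 bp at E10.5. The H3K27ac peak there measured 1011 bp in wild type and 3537 bp in the double mutant. The site from 168656705 to 168658362, with scores of 888 and 913, had H3K27ac peaks of 1675 and 2189 bp. For the site from 168684944 to 168686668 the order was the opposite, 2272 bp in wild type and 1248 bp in the double mutant.

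Over whole windows, double-mutant H3K27ac covered more sequence than wild-type H3K27ac at each locus. It covered 44.9 kb in wild type and 88.8 kb in the double mutant at Sall1, 23.4 and 42.0 kb at Sall3, and 26.3 and 40.8 kb at Sall4. The ratios of double mutant to wild type were 1.98, 1.79 and 1.55, beside 1.25 over all autosomes. For H3K27me3 the lengths were 68.6 and 35.2 kb at Sall1, 45.8 and 33.7 kb at Sall3, and 39.9 and 34.0 kb at Sall4. Here the ratios were 0.513, 0.736 and 0.851, beside 0.807. Both marks thus differed most between the genotypes at Sall1 and least at Sall4, and Sall4 H3K27me3 was near the autosomal ratio. The order of the loci was not tested. Read depth is unknown from peak lists and can set the covered length, so the autosomal ratio is the reference for each value.

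**Figure D3:**
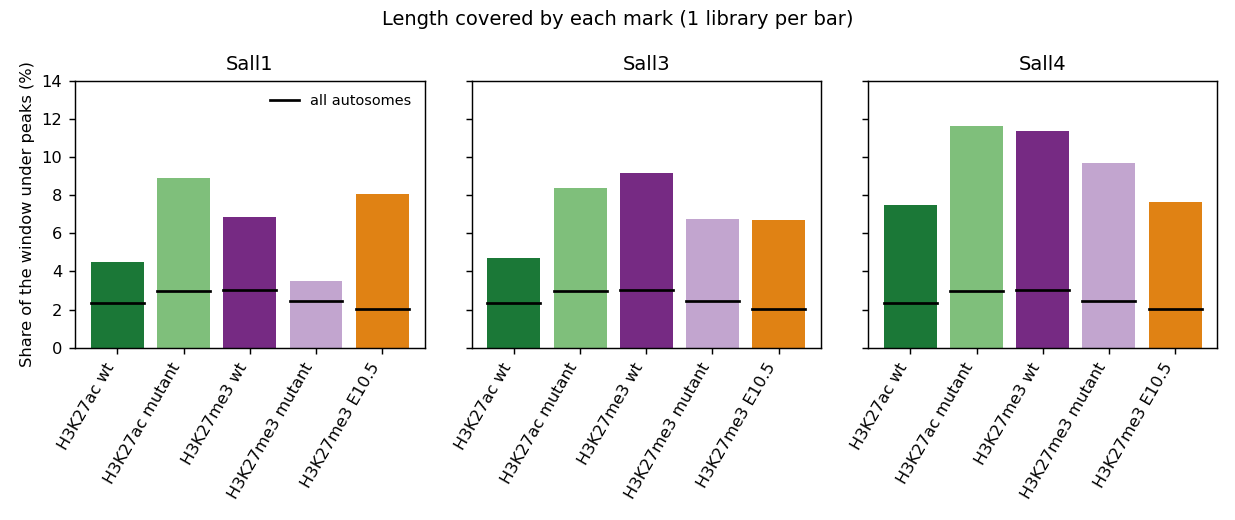
Share of each window under peaks in percent (bars, from 0), 1 library per bar, for H3K27ac and H3K27me3 in wild type (wt) and double mutant and for E10.5 H3K27me3; black lines give the same share over all autosomes. At Sall1 the bar of H3K27ac goes from 4.49% in wild type to 8.88% in the double mutant, and that of H3K27me3 from 6.86% to 3.52%.

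Few acetylated places disappeared. Wild-type H3K27ac peaks without a double-mutant peak numbered 2 of 22 at Sall1 (9.09%, 2.53 to 27.8%), 0 of 11 at Sall3 (up to 25.9%) and 1 of 16 at Sall4 (6.25%, 1.11 to 28.3%), beside 15.1% of autosomal peaks. All 3 carried peaks of both HOX13 factors. They were low peaks, from 91459738 to 91460517 (score 54.6) and from 92155568 to 92156552 (score 90.4) at Sall1, and from 168730577 to 168731929 (score 92.0) at Sall4. HOX13-bound peaks made up 18 of 22, 8 of 11 and 11 of 16 wild-type H3K27ac peaks in the order Sall1, Sall3 and Sall4, beside 38.2% over the autosomes. Of these bound peaks 2, 0 and 1 had no double-mutant peak, where 21.3% of bound and 11.2% of unbound autosomal peaks had none. The interval of the largest group, 3.10 to 32.8% at Sall1, includes the autosomal share of bound peaks, so these loci did not stand apart at this number of peaks.

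Peaks called in the double mutant only were more frequent. They numbered 21 of 40 at Sall1 (52.5%, 37.5 to 67.1%), 5 of 14 at Sall3 (35.7%, 16.3 to 61.2%) and 10 of 25 at Sall4 (40.0%, 23.4 to 59.3%), beside 30.4% of autosomal double-mutant peaks. The intervals of Sall3 and Sall4 include the autosomal share, and that of Sall1 lies above it. With peaks closer than 1000 bp joined, the Sall1 count was 13 of 32, or 40.6% (25.5 to 57.7%), beside 26.8% over autosomes, and this interval includes the autosomal share. Here and below, a bound peak is one that overlaps a HOX13 peak of wild type, since binding was not profiled in the double mutant. By HOX13 binding, 14 of 18 unbound and 7 of 22 bound double-mutant peaks at Sall1 had no wild-type peak, 3 of 5 and 2 of 9 at Sall3, and 8 of 13 and 2 of 12 at Sall4. Over the autosomes 37.5% of unbound and 13.4% of bound peaks had none. Unbound peaks were thus 25 of the 36 called in the double mutant only, beside 87.0% over the autosomes. Among all double-mutant H3K27ac peaks, bound ones were 22 of 40 at Sall1, 9 of 14 at Sall3 and 12 of 25 at Sall4, beside 29.3%. Bound peaks were thus frequent among double-mutant H3K27ac peaks of these windows in general, and not only among those called in this genotype only.

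Scores of the peaks called in the double mutant only were mostly low, with medians of 104 at Sall1, 91.7 at Sall3 and 104 at Sall4, but 2 at Sall1 were high. The Sall1 peak from 92092985 to 92095757 scored 745, and only 18 of the 11112 autosomal double-mutant peaks that scored as high, or 0.162%, had no wild-type peak. A low wild-type H3K27ac peak lay 123 bp away. The Sall1 peak from 91906519 to 91909755 scored 694 and held a site of both factors; 24 of 11550 peaks scoring as high, or 0.208%, had no wild-type peak, and the nearest one was 1215 bp away. Other double-mutant peaks lay 20 and 301 bp from these peaks, and once peaks closer than 1000 bp were joined, both belonged to peaks that overlapped wild-type H3K27ac. At Sall3 the highest was the peak over the HOX13 site from 81250473 to 81251891, with a score of 177, 64820 bp from the nearest wild-type peak. At Sall4 it was the peak from 168402598 to 168404309, with a score of 189, which lay 789 bp from a wild-type peak, held no HOX13 peak and also belonged to a wild-type-overlapping peak when joined.

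**Figure D4:**
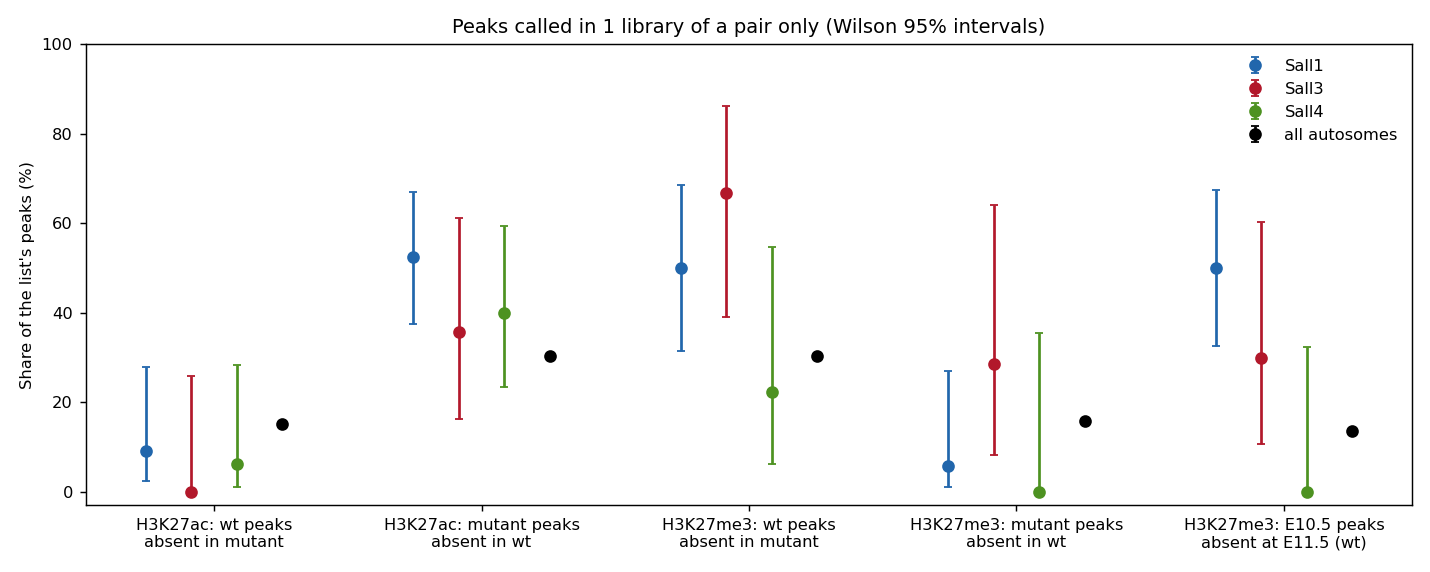
Share of peaks in percent that had no overlapping peak in the other library of a pair, for Sall1, Sall3, Sall4 and all autosomes; points are shares and bars their Wilson 95% intervals. The Sall1 points for double-mutant H3K27ac (52.5%), wild-type H3K27me3 (50.0%) and E10.5 H3K27me3 (50.0%) lie above the autosomal points with intervals that leave those out, and so does the Sall3 point for wild-type H3K27me3 (66.7%).

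Polycomb peaks differed in the opposite direction. Wild-type H3K27me3 peaks without a double-mutant peak numbered 12 of 24 at Sall1 (50.0%, 31.4 to 68.6%), 8 of 12 at Sall3 (66.7%, 39.1 to 86.2%) and 2 of 9 at Sall4 (22.2%, 6.32 to 54.7%), beside 30.4% of autosomal wild-type peaks. When only peaks scoring at least 100 were kept, the Sall1 count was 7 of 16 (43.8%, 23.1 to 66.8%), beside 29.9%, and its interval includes the autosomal share. In the reverse direction the counts were 1 of 17, 2 of 7 and 0 of 7 double-mutant peaks, beside 15.8%. By HOX13 binding, 5 of 10 bound and 7 of 14 unbound wild-type H3K27me3 peaks at Sall1 had no double-mutant peak. At Sall3 the counts were 4 of 6 and 4 of 6, and at Sall4 0 of 4 and 2 of 5. Over the autosomes 21.8% of bound and 32.1% of unbound wild-type H3K27me3 peaks had none. The 8 Sall3 peaks had scores of 58.2 to 212 and lay partly beside wider peaks; with peaks closer than 1000 bp joined, the count was 3 of 7 (42.9%). At Sall4 1 of the 2 was high, from 168567493 to 168569407 with a score of 1139; among the 6603 autosomal wild-type peaks scoring as high, 2.06% had no double-mutant peak. This Sall4 peak overlapped H3K27ac in both genotypes and H3K27me3 at E10.5, and it held no HOX13 peak.

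At Sall1 9 of these 12 peaks lay in 1 stretch, which was chosen after its values were seen. Double-mutant H3K27me3 ended at 91797763 and was next called at 92306547, beyond the window, which leaves a gap of 509 kb. Within the 402 kb of this gap that belong to the window, 9 wild-type H3K27me3 peaks lay between 91984055 and 92136463 and covered 19.2 kb. Each was 170 to 246 kb from the nearest double-mutant peak. The highest were from 91997459 to 92002072 (score 1039), from 92090210 to 92094100 (score 654) and from 91992801 to 91996203 (score 609). Among autosomal wild-type peaks that scored as high as each of these, 2.21%, 3.19% and 3.45% had no double-mutant peak. The whole gap held 12 wild-type peaks.

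The same Sall1 stretch held most of the HOX13 peaks and most of the added acetylation of the window. It carried 25 of the 38 HOXA13 and 25 of the 32 HOXD13 peaks, in 28 sites of which 22 had both factors. H3K27ac covered 17.3 kb there in wild type and 50.2 kb in the double mutant, with 15 of 24 double-mutant peaks called in that genotype only, or 8 of 17 with peaks closer than 1000 bp joined. Over the autosomes these shares were 30.4% and 26.8%. In the 598 kb before the stretch, which include the stated position of the gene, H3K27ac covered 27.6 and 38.7 kb. There 6 of 16 double-mutant peaks were called in that genotype only, or 5 of 15 when joined, nearer the autosomal shares. H3K27me3 in this first part covered 49.4 kb in wild type and 35.2 kb in the double mutant. Of the 9 wild-type H3K27me3 peaks of the stretch, 5 overlapped a HOX13 peak, 5 double-mutant H3K27ac and 2 wild-type H3K27ac. Among autosomal wild-type H3K27me3 peaks absent in the double mutant these shares were 11.8%, 16.9% and 13.6%. The stretch is dense in HOX13 peaks, so the autosomal share of bound peaks is not a like reference. Over the whole Sall1 window, 5 of 10 bound and 7 of 14 unbound wild-type H3K27me3 peaks lacked a double-mutant peak. All 5 of these bound peaks lay in the stretch, which by its definition holds no double-mutant H3K27me3 peak. The counts of the window are thus partly set by how the stretch was chosen and do not compare bound with unbound peaks. Of the 15 H3K27ac peaks found in the double mutant only, 7 were HOX13-bound, beside 13.0% of such autosomal peaks. The share of 7 of 15 was not above that of all double-mutant H3K27ac peaks in the Sall1 window, 55%. Of the same 15 peaks, 6 overlapped H3K27me3 of wild type or of E10.5, beside 16.9%. H3K27me3 covered 6.86% of the window in wild type and 8.07% at E10.5, beside 3.01% and 2.03% of the autosomes. The autosomal 16.9% is thus not a like reference either.

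**Figure D5:**
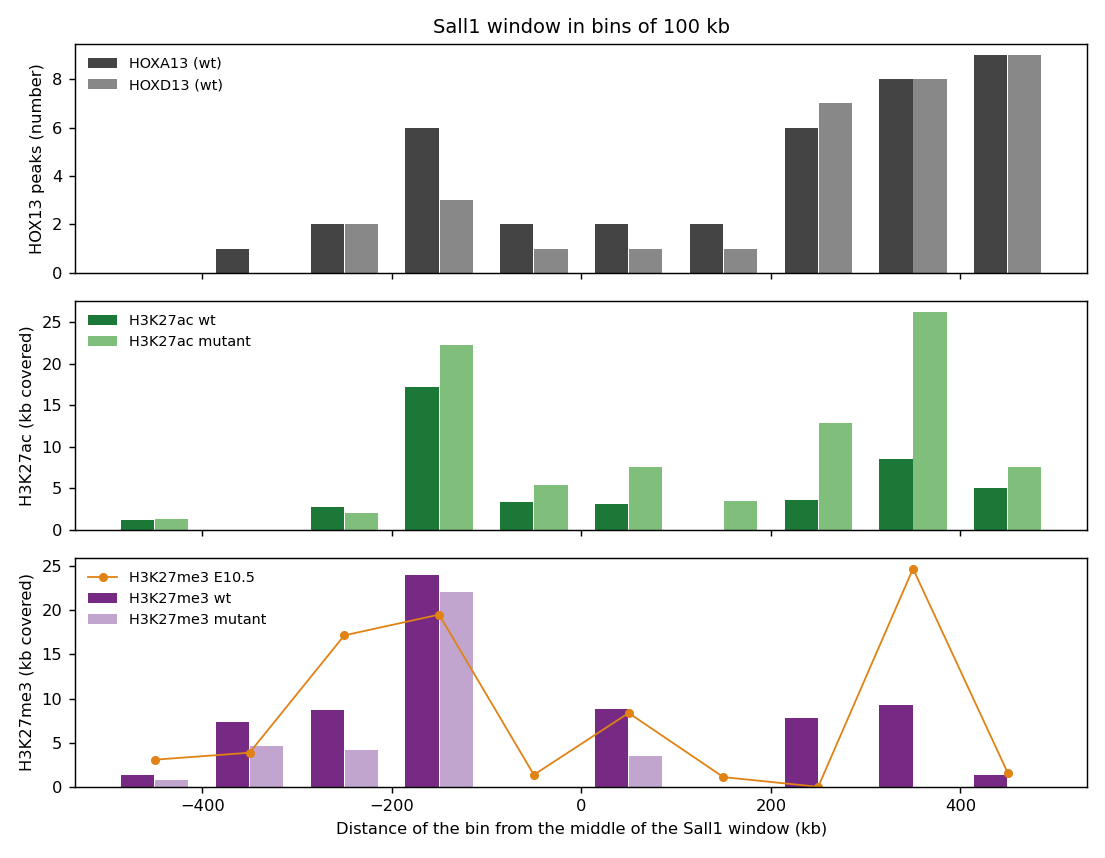
The Sall1 window in bins of 100 kb, with distance from the middle of the window in kb on the horizontal axis: number of HOXA13 and HOXD13 peaks (top), kb covered by H3K27ac (middle) and kb covered by H3K27me3 (bottom; bars wild type and mutant, points E10.5). In the bin centred at 350 kb, H3K27ac covers 8.56 kb in wild type and 26.3 kb in the double mutant, and H3K27me3 covers 9.29 and 0 kb.

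At the stated position of Sall1 broad peaks of both marks were called in both genotypes. A wild-type H3K27ac peak of 14917 bp ran from 91557701 to 91572617, and a double-mutant peak of 16853 bp from 91555832 to 91572684. Wild-type H3K27me3 lay over 88.6% of the former in 2 peaks, and double-mutant H3K27me3 over 79.0% in 3 peaks. E10.5 H3K27me3 covered 33.8%. The wild-type peak held 3 HOXA13 and 2 HOXD13 peaks, of which the sites from 91563383 to 91565015 and from 91566006 to 91567684 had both factors and kept both marks. A further site, from 91558460 to 91559462 with HOXA13 alone, had both marks in wild type and H3K27ac alone in the double mutant.

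The widest Polycomb peak of the 3 loci was at Sall3, where wild-type H3K27me3 spanned 18265 bp from 81173540 to 81191804. In the double mutant 2 H3K27me3 peaks lay over 88.4% of this span, and at E10.5 2 peaks lay over 70.5%. Acetylation lay within the same span. Wild-type H3K27ac covered 34.7% of it and double-mutant H3K27ac 84.1%, each in 3 peaks. The double-mutant peaks included 1 of 10931 bp from 81177302 to 81188232, where the wild-type peak, from 81180616 to 81185387, had 4772 bp. The span held 6 HOXA13 and 5 HOXD13 peaks. Sequence with both marks came to 14.4 kb of the Sall3 window in wild type and 22.2 kb in the double mutant, while at Sall1 it was 20.3 and 17.1 kb and at Sall4 7.31 and 9.30 kb. At Sall3 and Sall4, acetylation thus overlapped H3K27me3 over more sequence in the double mutant than in wild type, and at Sall1 over less. The length with both marks was not computed over the autosomes, so these differences have no reference. H3K27ac alone covered 1.25 times as much of the autosomes in the double mutant as in wild type.

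At Sall4 the widest H3K27me3 peak ran from 168587332 to 168595208 in wild type (7877 bp) and from 168587317 to 168595574 in the double mutant (8258 bp). Its acetylated core was called from 168590227 to 168593504 in wild type and from 168590266 to 168592909 in the double mutant. This core held the wild-type H3K27ac peak with the highest score of the window (3100). In the whole wild-type H3K27ac list 4439 peaks share exactly this score, so it does not rank them. A single HOXD13 peak (score 79.0) and no HOXA13 peak lay in the core. Wild-type H3K27ac lay over 41.6% of the wild-type H3K27me3 peak, and double-mutant H3K27ac over 33.6%. The widest H3K27me3 peak of the Sall4 window was thus nearly the same in both genotypes. At Sall3 double-mutant H3K27me3 also lay over most of the widest wild-type peak (88.4%), and the contrast was in H3K27ac, which covered 34.7% and 84.1% of it. E10.5 H3K27me3 covered 23.3% of the wild-type Sall4 peak.

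At E10.5, H3K27me3 covered 80.7 kb of the Sall1 window in 28 peaks, 33.6 kb of the Sall3 window in 10 and 26.7 kb of the Sall4 window in 8. Peaks without an E11.5 wild-type peak numbered 14 of 28 at Sall1 (50.0%, 32.6 to 67.4%), 3 of 10 at Sall3 (30.0%, 10.8 to 60.3%) and 0 of 8 at Sall4 (up to 32.4%), beside 13.6% of autosomal E10.5 peaks. In the Sall1 stretch without double-mutant H3K27me3 there were 12 E10.5 peaks over 28.2 kb, and 9 of them had no wild-type peak at E11.5. Of these 12 peaks, 6 overlapped double-mutant H3K27ac and 3 wild-type H3K27ac, beside 38.5% and 27.8% of autosomal E10.5 peaks. HOX13 sites inside E10.5 H3K27me3 numbered 7 of 42 at Sall1, 7 of 17 at Sall3 and 2 of 17 at Sall4, beside 6.44% of autosomal sites. The antibody, the strain and the part of the limb taken changed together with stage, and their effects cannot be told apart.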

How the data were processed

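ChIP-seq of mouse forelimb buds gave 7 peak lists, and the 5 input libraries were not used here. Groups were taken from sample titles. Per the submitters' processing notes, the authors used Bowtie 0.12.7, MACS 1.4 and mm9; the deposited file names pair each library with an input. The deposited score of a peak, read as a p-value on a negative logarithmic scale, has a minimum of 50. It depends on depth and input and was compared within 1 list only. The alternative that kept scores of at least 100 applied the same cut-off to every list, whatever its depth. The lists hold no read counts, so depth is unknown, and loss of the 2 factors in the mutant was not checked here.

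The lists were treated as mm9, since each held 6 to 16 peaks beyond the last base of GRCm38 chromosome 1. Coordinates count from 1 and were not converted. Overlap meant at least 1 bp; peaks of both factors that overlapped were merged into sites. Shares carry Wilson 95% intervals from statsmodels 0.14.6, and their reference is the same share over all autosomal peaks. Overlap code was tested on simulated intervals. No test across libraries was made, with 1 library per group. Members and region lists were chosen with earlier results of these data known. Regions named are, per locus, the 5 sites of both factors with the highest HOXA13 score, the 3 highest peaks called in 1 genotype only, the widest H3K27me3 peak and the highest H3K27ac peak; others are marked or follow from a count. Promoter sequence came from RefSeq by symbol (Sall1 matched; GRCm38.p6). Alternatives were keeping only peaks that scored at least 100, requiring that overlaps span 50% of either peak, equal autosomal list length, joining of peaks closer than 1000 bp, and membership by peak midpoint.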

Additional observations from a re-analysis of the deposited data

How the results depend on the processing

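Of 111 values of the main shares under the alternatives listed with the processing, 105 stayed within the 95% interval of the reported share. Membership by peak midpoint changed none of these shares. The intervals are wide, so that a change from 66.7% to 42.9% for wild-type H3K27me3 at Sall3 still lay within, and the count says little about stability. When only peaks scoring at least 100 were kept, double-mutant H3K27me3 peaks without a wild-type peak fell to 0% at Sall1 and to 0% at Sall3, E10.5 H3K27me3 peaks without a wild-type peak to 0% at Sall3, and HOX13 sites in wild-type H3K27me3 to 33.3% at Sall3. Where an overlap had to span 50% of either peak, the last share was 14.3% at Sall1. With peaks closer than 1000 bp joined, double-mutant H3K27me3 peaks without a wild-type peak were 0% at Sall1. The Sall1 share of H3K27ac peaks called in the double mutant only was 43.8% with equal list lengths (21.6% over autosomes) and 57.1% with the higher score minimum (24.5%); the latter minimum left 5 of 19 at Sall4. In the Sall1 stretch, 4 of the 9 wild-type H3K27me3 peaks scored 100 or more, and the count of H3K27ac peaks called in the double mutant only went from 15 to 8 when peaks were joined; both alternatives were added after seeing the data. No paired analysis was possible because each group holds 1 library. Peak numbers per locus are small, and intervals cover the counting of peaks, not the spread between embryos.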
